A study of Mus musculus with 12 samples.

Results

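OP9 cells exposed to imatinib for 96 h were compared with OP9 cells given vehicle, with 3 arrays in each group, which are 6 of the 12 arrays of the series. Every gene with a probe detected on at least 3 of the 12 arrays entered the comparison, 10211 in all, whatever its difference between the groups. The gene families described below were read from that set, by lists chosen with earlier results of these data known. Genes named within them were mostly picked by the size of their difference. Called genes picked by rank, or from lists with more than 5 called members, also had to have groups that do not overlap. For them non-overlap follows from that choice and is no separate result. OP9 is a mouse stromal line, taken by its labels from newborn calvaria of strain B6C3F1 op/op, so the cells of both groups carry the op mutation of Csf1, and the labels class them as MSCs. The vehicle arrays are labelled 0 h and the other 6 arrays of the series hold imatinib at 32 h and 64 h. No vehicle array labelled 96 h was analysed here, and the series text can be read as vehicle given over the same times, so drug and time in culture cannot be told apart. The dose of imatinib is not given in the sources used here, and all results come from this 1 line.

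Imatinib blocks the kinase activity of ABL, KIT and the PDGF receptors. Stromal cells of this kind lay down collagen-rich matrix, turn it over with secreted proteases, and send short-range growth factor signals to neighbouring blood cell precursors. The PDGF receptors are among the main growth signals of such cells.

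Total RNA was read on Illumina BeadChips with 45281 probes, of which 16162 to 17332 were detected per array, at a median signal of 103.7 to 111.7 intensity units. Arrays of the same group correlated at r = 0.990 to 0.991 and arrays of different groups at r = 0.975 to 0.977. A gene rose or fell when its adjusted p was under 0.05 in limma, and values in parentheses are log2 differences, 96 h minus vehicle, ± SE from that fit with n = 3 arrays per group. By this rule 767 genes rose (7.51% of those tested) and 753 fell (7.37%), 14.9% in either direction, and 170 and 166 of them changed at least 2-fold. Counted by probes, 1238 rose (6.55%) and 1279 fell (6.77%). The groups did not overlap for 33.3% of genes. The median log2 difference over all genes was 0.00207 and the median SE was 0.15. Leaving out any 1 of the 6 arrays left between 564 and 663 genes higher and between 577 and 635 lower. Genes named below as risen or fallen passed in each of the 15 alternative settings in which they were tested, unless their loss is given. Nothing in the labels tells whether replicates are independent cultures, and p-values here cover the spread among the arrays alone, which may be technical.

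Gene families with several members high or low are set side by side in the plot of family shares. Histone genes and serpins with plasminogen activation genes stood at its ends. In other families, such as respiratory chain subunits and E2F factors, few or no members changed.

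**Figure D1:**
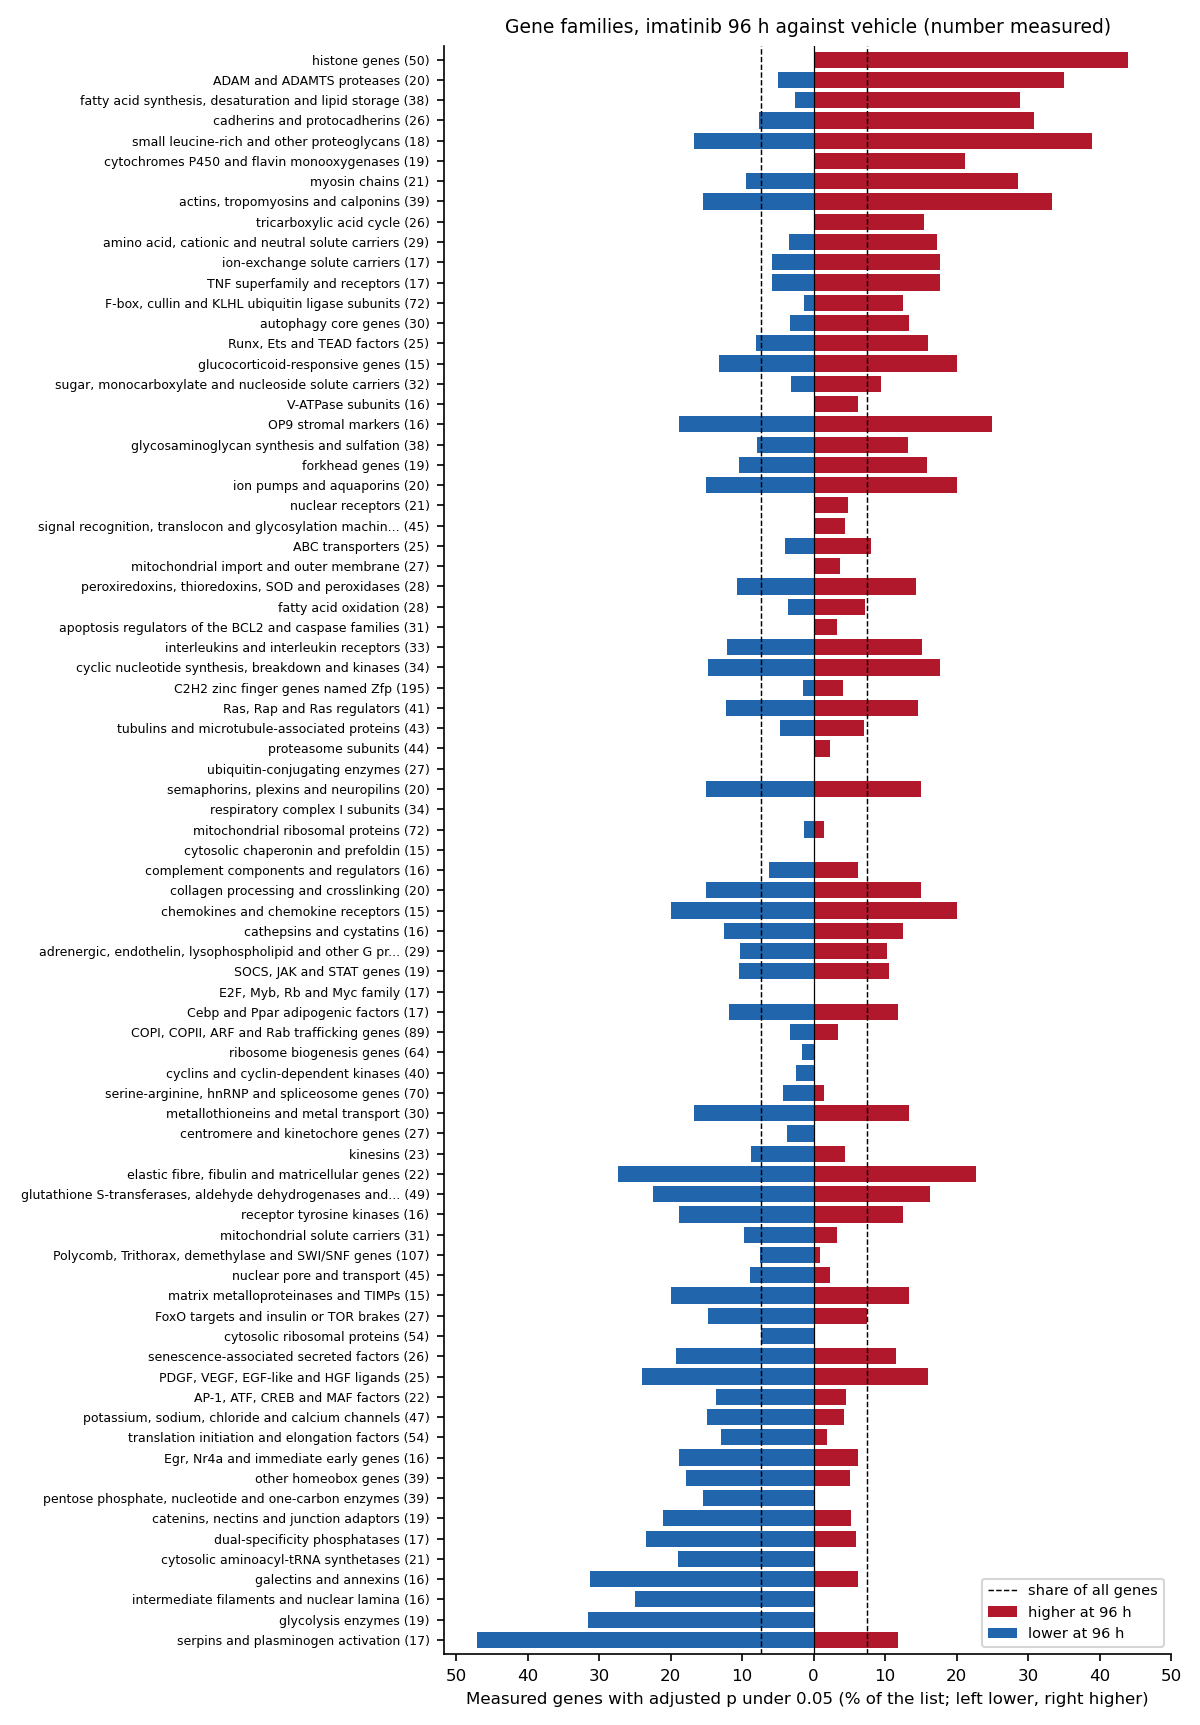
Share of the measured genes of each family that rose (right, red) or fell (left, blue) at 96 h against vehicle, in percent of the family, for 79 families with at least 15 measured genes, whose number stands in brackets. Dashed lines mark the shares of all genes, 7.51% higher and 7.37% lower. Histone genes reach 44% on the right and serpins with plasminogen activation genes 47.1% on the left.

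Histones wrap DNA into nucleosomes. Copies of H2A, H2B, H3 and H4 form the core, and H1 binds the linker between cores. Of 50 measured histone genes 22 rose (44%, against 7.51% of all genes) and 0 fell in limma (2 were lower at an unadjusted p under 0.05), with a median of 0.32. The count was between 19 and 23 without any 1 array. H4c8, which encodes histone H4, read 7.52, 7.25 and 7.51 on the vehicle arrays and 8.90, 8.75 and 8.81 at 96 h, in normalized log2 intensity. Every 96 h array lay above every vehicle array, a rise of 2.62-fold (1.39 ± 0.12, adjusted p = 9.43e-07 in limma). H4c1 rose from at most 7.497 in vehicle to at least 8.675 at 96 h (1.35 ± 0.12), H4c12 rose by 1.08 ± 0.19 and H2ac18, an H2A gene, by 1.05 ± 0.13.

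The rise was uneven between histone classes, a division made after the values were seen. In the H4 class 8 of 9 genes rose (median 0.96), in the H2B class 8 of 10 (median 0.73) and both measured linker H1 genes. Of the linker genes H1f10 (0.65 ± 0.20, adjusted p = 0.0479 in limma) lost its call without at least 1 of the arrays. In the H2A class 2 of 13 rose (median 0.05), in the H3 class 1 of 7 (median 0.23) and among replacement and variant histones 1 of 9 (median -0.02). The H2A genes that rose, H2ac18 and H2ac19, are close copies of each other. Histone genes of a class share most of their coding sequence, so a probe cannot be assigned to a single gene with certainty. Most clustered histone mRNAs end in a stem-loop in place of a poly(A) tail, and the labelling kit primes from the tail. The arrays therefore read the tailed share of these transcripts, and total histone mRNA was not measured.

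**Figure D2:**
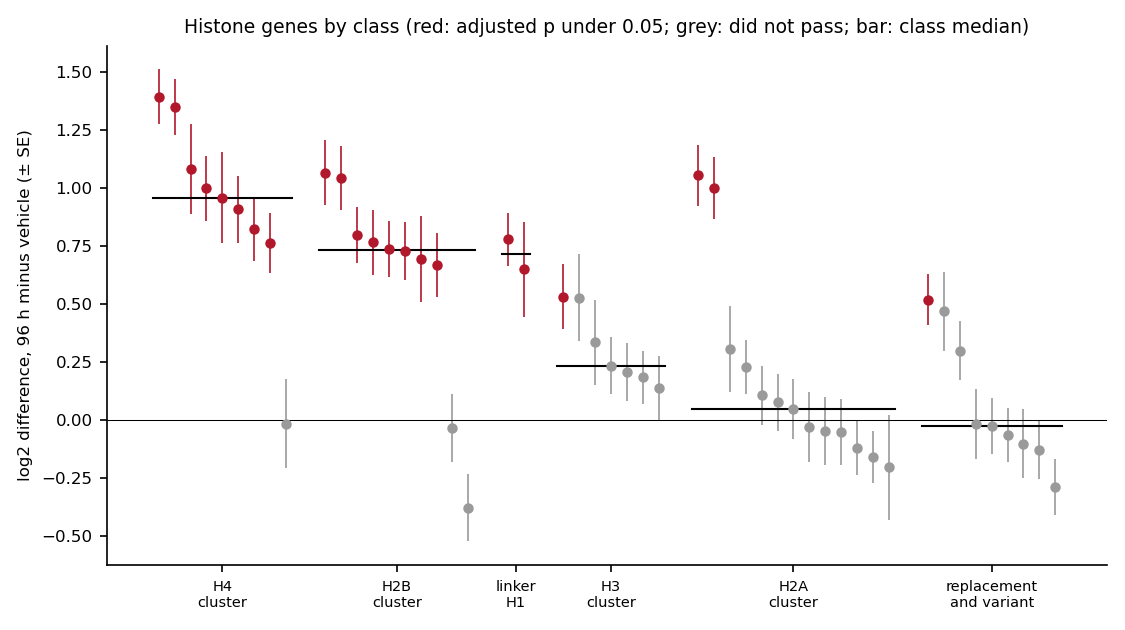
Log2 difference between 96 h and vehicle (vertical axis, ± SE) for each of the 50 measured histone genes, grouped by class along the horizontal axis. Red points passed at adjusted p under 0.05, grey points did not, and black bars are class medians. The H4 and H2B medians are 0.96 and 0.73, and those of H2A and H3 are 0.05 and 0.23.

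Many H2A and H2B genes lie head to head and share the DNA between their start sites as a common promoter. Among the measured genes 4 such pairs were found on chromosome 13, with starts less than 300 bases apart, shown here because the H2B gene alone passed in each. The sequence between the 2 starts is given 5′ to 3′ on the strand of the H2B gene, from the RefSeq promoter table of build GRCm38.p6. Capitals mark the CCAAT box, CCAAT or its reverse complement ATTGG, and the H2B octamer ATTTGCAT, both searched on both strands. The regions are chr13:21753913-21754075 (plus strand), chr13:22035644-22035820 (plus strand), chr13:22042950-22043197 (plus strand) and chr13:23574208-23574380 (minus strand), in the order printed.
H2ac15/H2bc15: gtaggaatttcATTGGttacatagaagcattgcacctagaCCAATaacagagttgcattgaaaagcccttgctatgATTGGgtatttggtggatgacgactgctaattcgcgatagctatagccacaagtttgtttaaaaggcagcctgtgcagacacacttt
H2ac12/H2bc12: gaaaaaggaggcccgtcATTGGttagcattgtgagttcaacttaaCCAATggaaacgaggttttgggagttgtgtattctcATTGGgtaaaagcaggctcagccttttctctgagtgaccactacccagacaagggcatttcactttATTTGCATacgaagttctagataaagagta
H2ac11/H2bc11: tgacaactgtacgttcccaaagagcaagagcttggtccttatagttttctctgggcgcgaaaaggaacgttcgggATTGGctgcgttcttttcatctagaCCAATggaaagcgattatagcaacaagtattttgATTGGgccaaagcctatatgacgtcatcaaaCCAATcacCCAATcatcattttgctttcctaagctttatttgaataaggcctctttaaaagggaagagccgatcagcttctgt
H2ac7/H2bc7: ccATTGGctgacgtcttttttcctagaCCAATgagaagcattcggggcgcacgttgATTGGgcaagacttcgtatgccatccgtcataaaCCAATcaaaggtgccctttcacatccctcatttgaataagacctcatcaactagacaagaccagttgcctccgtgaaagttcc
They hold 3, 3, 5 and 4 CCAAT boxes, and the octamer stands in the second alone. In windows of 300 bases around the start, CCAAT was present in all 13 promoters of measured H2A genes and all 9 promoters listed for 8 of the 10 measured H2B genes, against 37.4% of 32851 promoters. The octamer was in 4 of those 9 H2B and 3 of those 13 H2A windows, against 1.74% of all promoters. CCAAT was in 2 of the 9 H4 windows. A match describes the letters only.

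In each of the 4 pairs the H2B gene rose and the H2A gene did not pass. H2bc12 read 8.29, 8.47 and 8.14 in vehicle and 9.40, 9.35 and 9.35 at 96 h, and rose by 1.07 ± 0.14 (adjusted p = 8.44e-05 in limma). Its neighbour H2ac12 read 9.89, 10.25 and 10.04 in vehicle and 10.29, 9.73 and 10.08 at 96 h, a difference of -0.03 ± 0.15, and its groups overlap. H2bc7 rose by 0.74 ± 0.12 and H2bc11 by 0.73 ± 0.13, with H2ac7 at -0.16 ± 0.11 and H2ac11 at -0.05 ± 0.14. H2bc15 rose by 0.69 ± 0.18, with H2ac15 at -0.05 ± 0.15, but its call was lost in 4 settings, without vehicle replicate 2 or 3 or 96 h replicate 1 or 3 (adjusted p up to 0.0920). The gap between the H2B and the H2A value on the same array widened toward H2B by 1.10, 0.90, 0.78 and 0.74 in the pairs 12, 7, 11 and 15. The gap did not overlap between groups in any pair. Since the pairs are shown because the H2B gene alone passed, a wider gap follows from that choice and is no separate result.

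**Figure D3:**
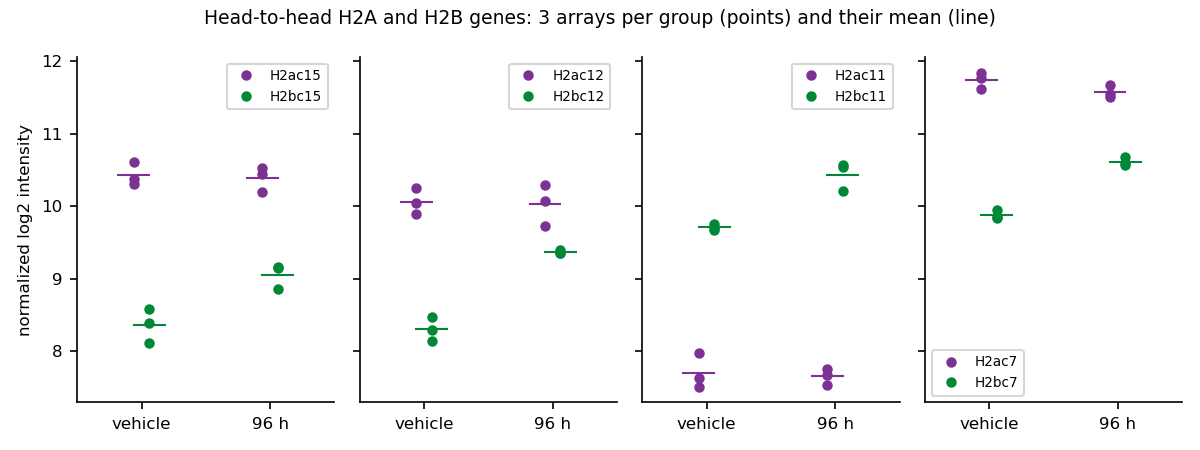
Normalized log2 intensity (vertical axis) of the H2A gene (purple) and the H2B gene (green) of each head-to-head pair on the 3 vehicle and 3 imatinib 96 h arrays (points), with group means (lines). The H2B values are higher at 96 h in each panel, and the H2A values overlap between the groups. Levels of different probes cannot be compared with each other.

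Genes of cell division moved little beside the histones. Of 40 cyclins and cyclin-dependent kinases only Ccnd1, the cyclin D1 gene, passed, and it fell. Among 27 centromere and kinetochore genes 0 rose in limma (3 at an unadjusted p under 0.05) and 1 fell. None of 17 E2F, Myb, Rb and Myc family genes was called in limma, and 0 had an unadjusted p under 0.05. Of 23 kinesins, the motors that walk on microtubules, 1 rose and 2 fell (13% called, against 14.9% of all genes). Kif18a, which acts on the spindle, was one of the lower (-0.74 ± 0.17).

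Secreted growth signals changed in both directions, with several of the larger rises in the FGF, R-spondin and TGF-beta families. Fgfr2, a receptor for fibroblast growth factors, read 7.52, 7.85 and 7.79 in vehicle and 10.06, 10.33 and 10.32 at 96 h. Every 96 h array was higher, by 5.72-fold on average (2.52 ± 0.12, adjusted p = 2.9e-09 in limma), and 2 other probes of the gene also rose. At 32 h and 64 h its mean was 8.97 and 9.90. It and its ligand gene Fgf10 were the members that rose among 10 measured FGF genes, and 0 fell in limma (1 at an unadjusted p under 0.05). Of 9 secreted Wnt modulators 3 rose and 1 fell. Called were 44.4% of them, 20% of the FGF list and 11.1% of the Frizzled and related receptors, against 14.9% of all genes. R-spondins strengthen Wnt signals by keeping Frizzled receptors at the cell surface, and beside Rspo2 the gene Rspo3 rose. Rspo3 read 4.26, 4.47 and 4.31 in vehicle, where no array detected it, and 6.57, 6.33 and 6.15 at 96 h, at least 2.88-fold higher (adjusted p = 6.71e-07 in limma). The Wnt inhibitor gene Sfrp1 rose as well (1.04 ± 0.14), Dkk3, of the Dickkopf family, fell (-0.56 ± 0.11), and Fzd5, a Frizzled receptor, was the 1 of 9 receptors that rose (1.44 ± 0.14).

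Of 10 measured TGF-beta family ligands 4 rose (40%, against 7.51% of all genes) and 0 fell in limma (2 at an unadjusted p under 0.05). Bmp4, a bone morphogenetic protein, read 9.61, 9.77 and 9.50 in vehicle and 11.20, 11.24 and 11.21 at 96 h, 3.01-fold higher (1.59 ± 0.12). Tgfb3 (1.27 ± 0.16), Tgfb2 (0.77 ± 0.17) and Gdf9 (0.62 ± 0.12) rose too. The proteins that hold or bind these ligands were split, with 3 of 13 higher and 4 lower (53.8% called, against 14.9% of all genes). Higher were Bmper (1.47 ± 0.16) and Fst, which encodes follistatin (0.93 ± 0.12), both of which bind BMPs or activins, and Crim1 (0.71 ± 0.14). Lower were Ltbp1 (-1.82 ± 0.18) and Ltbp3 (-0.76 ± 0.14), which tether latent TGF-beta to the matrix, and the BMP antagonist gene Chrd (-0.74 ± 0.14). One of the 3 other kept probes of Ltbp1 had the opposite sign and did not pass. The fourth, Ltbp2 (-0.63 ± 0.19), lost its call in 11 of the 15 settings, with adjusted p up to 0.138. Of 12 target genes 2 rose and 3 fell (41.7% called), 1 or 2 in each direction without any 1 array. Among them Id4, an inhibitor of helix-loop-helix factors that BMPs induce, rose (1.30 ± 0.14), and Tgfbi, named for its induction by TGF-beta, fell at least 1.64-fold, to a level no 96 h array detected. The transducer gene Smad3 fell (-0.56 ± 0.11).

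Of 25 ligands of the PDGF, VEGF, EGF and neurotrophin kind, 4 rose and 6 fell, with 3 in each direction holding without any 1 array. Gas6, the ligand of AXL and MERTK, rose (1.55 ± 0.12), as did Angpt1 (1.02 ± 0.13). The receptor genes Axl and Mertk fell. Axl lay between -1.16 and -1.05 in the 15 settings, and Mertk lost its call without at least 1 of the arrays. Ptn, which encodes the heparin-binding factor pleiotrophin, read 6.01, 6.32 and 6.08 in vehicle and 4.57, 4.46 and 4.75 at 96 h. No 96 h array detected it, so it was at least 2.44-fold lower (adjusted p = 6.37e-05 in limma). Bdnf, a neurotrophin (-1.31 ± 0.13), and Pdgfc, a ligand of the PDGF receptor (-1.30 ± 0.12), fell too. Receptor tyrosine kinases gave 2 higher and 3 lower of 16 (1 or 2 in each direction without any 1 array), and Egfr rose (0.69 ± 0.15). The dual-specificity phosphatases, many of which switch off MAP kinases, gave 1 higher and 4 lower of 17, with Dusp14 (-1.55 ± 0.19) and Dusp7 (-0.70 ± 0.12) among the lower. Of 41 Ras, Rap and Ras regulator genes 6 rose and 5 fell. Called were 40% of the ligand list and 31.2% of receptor tyrosine kinases, against 14.9% of all genes. Dual-specificity phosphatases stood at 29.4% and the Ras list at 26.8%. The small GTPase genes Rasl11a (2.44 ± 0.19) and Rasl11b (1.91 ± 0.12) rose, and Rasl11a read 5.36 to 5.64 in vehicle and 7.62 to 8.25 at 96 h.

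**Figure D4:**
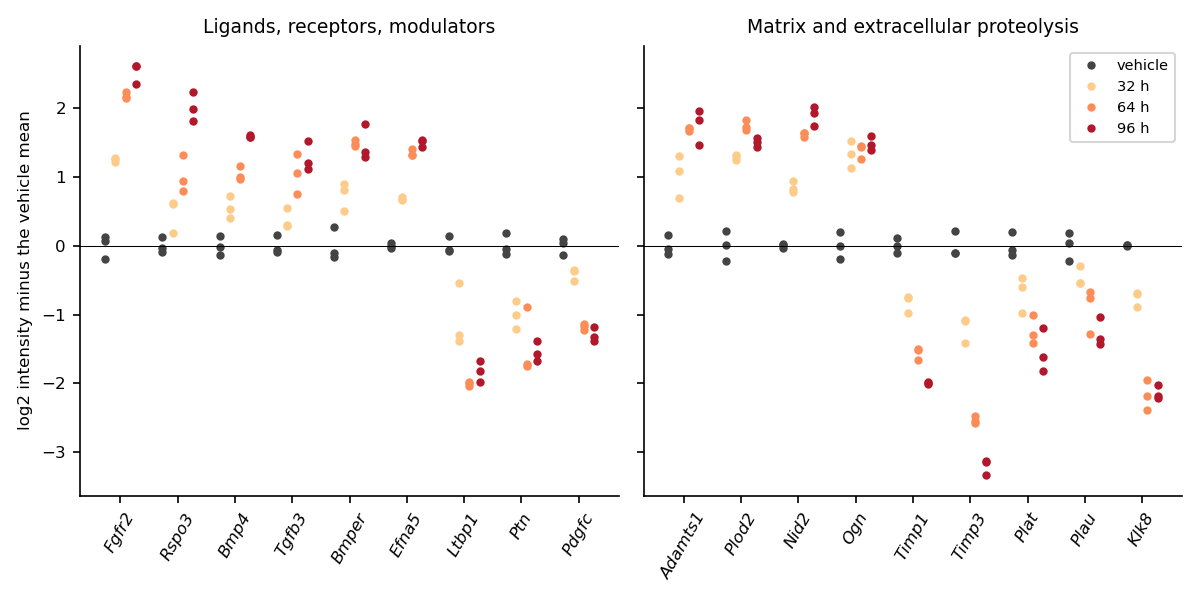
Normalized log2 intensity minus the vehicle mean (vertical axis) on each of the 3 arrays per group for 9 signalling genes (left) and 9 genes of the matrix and its proteolysis (right), at vehicle, 32 h, 64 h and 96 h. No 96 h array overlaps a vehicle array for these genes, and many genes were named only where this held. The 32 h and 64 h arrays carry another array label than the vehicle and 96 h arrays.

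Guidance and second-messenger genes changed in both directions. Called were 25% of the Eph and ephrin list, 30% of semaphorins and receptors and 32.4% of cyclic nucleotide genes, against 14.9% of all genes. The medians of these lists were 0.15, 0.09 and 0.13. Ephrins and Eph receptors signal between touching cells, and of 12 measured 2 rose and 1 fell. Efna5, an ephrin gene, read at most 8.997 in vehicle and at least 10.386 at 96 h (1.49 ± 0.10), the receptor gene Epha7 rose (1.48 ± 0.13) and Epha2 fell (-1.27 ± 0.15). Semaphorins and their receptors gave 3 higher and 3 lower of 20, with Nrp1 (0.78 ± 0.12) and Plxnd1 (0.73 ± 0.11) higher and Plxna2 (-1.57 ± 0.10) and Sema4b (-0.95 ± 0.13) lower. Of 34 genes of cyclic nucleotide signalling 6 rose and 5 fell, the latter 2 to 5 without any 1 array. Npr3, the clearance receptor for natriuretic peptides, read 4.82, 5.05 and 5.28 in vehicle and 7.32, 7.57 and 7.58 at 96 h. All 96 h arrays were higher, by 5.42-fold (2.44 ± 0.14, adjusted p = 1.15e-08 in limma), and 3 of its 4 other kept probes rose as well. The cGMP-dependent kinase gene Prkg1 rose (1.28 ± 0.17), unlike its relative Prkg2, which fell (-3.57 ± 0.15). The phosphodiesterase genes Pde1a (1.44 ± 0.13) and Pde4b (-1.25 ± 0.13) moved in opposite directions, and Pkia, an inhibitor of protein kinase A, rose (1.28 ± 0.15). Of 6 measured RGS genes, which shorten G protein signals, 2 rose and 2 fell (66.7% called, against 14.9% of all genes). Rgs4 rose (1.34 ± 0.14) and Rgs17 (-1.12 ± 0.13) and Rgs10 (-0.72 ± 0.15) fell. Rgs3 rose too (1.00 ± 0.20), but 2 other kept probes of it had the opposite sign without passing, and averaging its probes ended the call (adjusted p = 0.400 in limma). Gpr176, an orphan receptor, rose 5.69-fold (2.51 ± 0.13), and Sphk1, which makes sphingosine 1-phosphate, rose 3.57-fold (1.84 ± 0.13), while the receptor gene S1pr3 fell (-0.88 ± 0.17).

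Cytokine genes beyond those of lymphoid support were mixed, with 5 of 33 interleukin and receptor genes higher (3 or 4 without any 1 array) and 4 lower (2 to 4). Il17d (0.93 ± 0.18) and Il15 (0.91 ± 0.14) rose, and Tslp (-0.86 ± 0.18) and the receptor gene Il4ra fell, the last at least 1.55-fold to a level no 96 h array detected. Among 15 chemokine and receptor genes 3 rose and 3 fell. Called were 27.3% of the interleukin list and 40% of the chemokine list, against 14.9% of all genes. Cxcl15 rose at least 2.58-fold from a level no vehicle array detected, and Cx3cl1, a membrane-bound chemokine (-1.28 ± 0.15), Ccl9 (-0.86 ± 0.14) and Ccl5, at least 1.28-fold, fell.

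The plasminogen activator genes Plat and Plau were lower at 96 h, as were TIMP genes, which encode inhibitors of extracellular metalloproteinases. Several secreted proteases of the ADAMTS family were higher. Timp1 read 13.05, 13.26 and 13.15 in vehicle and 11.18, 11.16 and 11.15 at 96 h, and Timp3 12.73, 12.41 and 12.41 in vehicle and 9.19, 9.37 and 9.38 at 96 h. TIMPs inhibit matrix metalloproteinases, and in both genes every 96 h array was lower, by 3.98-fold (-1.99 ± 0.12) and 9.20-fold (-3.20 ± 0.13). Timp2 fell by 0.58 ± 0.11, and the collagenase gene Mmp13 rose (1.11 ± 0.20). Of 17 serpins and genes of plasminogen activation 8 fell (47.1%, against 7.37% of all genes) and 2 rose, and 8 were lower without any 1 array too. Plat, tissue plasminogen activator, read 6.837, 6.498 and 6.575 in vehicle and 5.445, 4.822 and 5.024 at 96 h, 2.91-fold lower (-1.54 ± 0.18). Plau, urokinase (-1.27 ± 0.17), its receptor gene Plaur (-0.94 ± 0.15) and the serpin gene Serpinb9f, at least 1.65-fold, fell too. Klk8, a kallikrein protease, read 6.82, 6.83 and 6.81 in vehicle and 4.61, 4.79 and 4.63 at 96 h, where no array detected it, at least 3.92-fold lower (adjusted p = 2.22e-08 in limma).

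Of 20 ADAM and ADAMTS genes 7 rose (35%, against 7.51% of all genes) and 1 fell, and without any 1 array 3 to 5 rose. Adamts1 read 5.38, 5.46 and 5.66 in vehicle and 6.96, 7.32 and 7.45 at 96 h (1.74 ± 0.16, adjusted p = 2.46e-06 in limma). It encodes a protease that cuts proteoglycans, and no arrays of the groups overlap. Adamts9 (2.17 ± 0.16) and Adam12 (0.81 ± 0.18) rose, and another kept probe of Adamts9 had the opposite sign and did not pass. Adamtsl4, a relative without protease activity, fell (-1.30 ± 0.12). The cathepsin gene Ctsh fell (-1.14 ± 0.14).

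Matrix proteins changed by type. Of 10 laminin and basement membrane genes 4 rose and 0 fell in limma (0 at an unadjusted p under 0.05), with a median of 0.38, and 2 to 4 rose without any 1 array. Nid2, which links laminin to collagen IV, read 6.26, 6.28 and 6.22 in vehicle and 8.26, 7.99 and 8.18 at 96 h, 3.70-fold higher (1.89 ± 0.11), and Smoc1 rose (1.45 ± 0.12). The collagen IV chains Col4a1 (0.79 ± 0.14) and Col4a2 (0.75 ± 0.14) and Col8a1 (1.25 ± 0.14) rose among 13 other collagens, in which 4 rose and 4 fell. Lower were Col7a1, the anchoring fibril collagen (-1.75 ± 0.16), Col15a1 (-0.98 ± 0.15) and Col16a1 (-0.79 ± 0.11) beside Col18a1. Of 20 collagen-processing genes 3 rose and 3 fell. Plod2, the lysyl hydroxylase of collagen ends, rose (1.497 ± 0.12), and the lysyl oxidase relatives Loxl4 (-1.02 ± 0.14) and Loxl3 (-0.86 ± 0.19) fell, the opposite of Lox. Of 18 proteoglycan genes 7 rose and 3 fell, the latter 1 or 2 without any 1 array. Higher were the small leucine-rich Ogn (1.48 ± 0.14) and Omd, and the cell-surface heparan sulfate carriers Gpc4 (0.78 ± 0.18) and Sdc2 (0.68 ± 0.13). Lower was Hapln4, a link protein gene (-1.09 ± 0.14). Of 38 enzymes that build glycosaminoglycans 5 rose and 3 fell. Called were 21.1% of that list and 55.6% of the proteoglycan list, against 14.9% of all genes. The laminin list stood at 40%, other collagens at 61.5% and collagen processing at 30%. Chst1, a sulfotransferase, read 11.68, 11.59 and 11.57 in vehicle and 9.74, 9.57 and 9.71 at 96 h (-1.94 ± 0.13), and Extl3, of heparan sulfate synthesis, rose (1.03 ± 0.11). Mfap5, of the elastic fibre microfibrils, rose (2.03 ± 0.14), and Ecm1 (-1.53 ± 0.13) and Emilin2 (-1.14 ± 0.16) fell.

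Of 26 measured genes of the cadherin superfamily, which join cells to each other, 8 rose and 2 fell, with a median of 0.23, and 5 to 7 rose without any 1 array. Higher were the large atypical cadherins Fat4 (1.37 ± 0.15) and Fat1 (0.89 ± 0.13) and the protocadherins Pcdh10, at least 1.69-fold, Pcdhb17 (0.86 ± 0.14) and Pcdh9 (0.65 ± 0.14). Cdh13, a cadherin anchored by a lipid, read 7.42, 7.55 and 7.97 in vehicle and 5.80, 5.63 and 5.78 at 96 h (-1.91 ± 0.15), and 2 other probes of it fell too. Of 19 catenin, nectin and junction adaptor genes 4 fell and 1 rose, with Cgnl1 (-1.18 ± 0.15), Pkp2 (-0.89 ± 0.16), Cldn15 (-0.87 ± 0.19) and Jam2 (-0.83 ± 0.13) lower. Of 14 tetraspanins 4 rose, 2 to 4 without any 1 array, and 2 fell. Tspan12 was among the higher (1.54 ± 0.18), and Cd82 (-1.46 ± 0.16) and Cd9 (-0.91 ± 0.12) fell. Of 14 integrin genes, which bind cells to the matrix, 3 rose and 6 fell, the latter 4 or 5 without any 1 array. Of 16 galectins and annexins 5 fell and 1 rose, with Lgals3 (-1.46 ± 0.10) and Anxa5 (-0.81 ± 0.12) among the lower. Of 12 S100 genes 1 rose, a call lost without single arrays, and S100a1 (-1.32 ± 0.13) and S100a13 (-1.18 ± 0.12) fell. Called were 64.3% of integrins, 42.9% of tetraspanins and 38.5% of the cadherin list, against 14.9% of all genes. Junction adaptors stood at 26.3%, galectins and annexins at 37.5% and S100 genes at 25%.

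In the cytoskeleton, actin-binding genes changed in both directions, and the intermediate filament genes that passed were lower. Of 39 actin and actin-binding genes 13 rose and 6 fell, and 8 to 11 rose and 3 or 4 fell without any 1 array. Called were 48.7% of these genes and 25% of intermediate filament and lamina genes, against 14.9% of all genes. Fhl2, a LIM-domain cofactor at focal adhesions, read 7.997, 8.112 and 8.097 in vehicle and 9.847, 10.087 and 9.682 at 96 h (1.80 ± 0.15). Tln2, a talin (1.46 ± 0.17), Acta1, a muscle actin (1.27 ± 0.26), and Pdlim1 (1.22 ± 0.18) rose, and Tagln2 (-0.95 ± 0.14), the crosslinker gene Actn4 (-0.90 ± 0.15) and Tpm3 (-0.57 ± 0.12) fell. Of 16 intermediate filament and lamina genes 4 fell, also without any 1 array, and 0 rose in limma (0 at an unadjusted p under 0.05). These were Krt13, a keratin (-1.66 ± 0.20), Plec, which ties filaments to junctions (-0.89 ± 0.13, with another probe of opposite sign), Vim, vimentin (-0.87 ± 0.12), and Lmna, lamin A (-0.67 ± 0.12).

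Genes of metabolism that passed were on the lower side in glycolysis and mostly on the higher side in lipid uptake and storage. Of 19 glycolysis genes 6 fell (31.6%, against 7.37% of all genes) and 0 rose in limma (0 at an unadjusted p under 0.05), with a median of -0.25. Between 4 and 7 fell without any 1 array. Pfkfb4, whose product sets the level of an activator of glycolysis, read 9.40, 9.40 and 9.72 in vehicle and 7.79, 7.69 and 7.67 at 96 h, 3.45-fold lower (-1.79 ± 0.13, adjusted p = 1.49e-07 in limma). The enolase genes Eno3 (-1.46 ± 0.13) and Eno2 (-0.91 ± 0.14) fell beside it, while Ldha, Gapdh and Hk1 did not pass (-0.25 to -0.21). Of 39 pentose phosphate, nucleotide and one-carbon enzymes 6 fell (15.4%, against 7.37% of all genes). In limma 0 rose (3 at an unadjusted p under 0.05). The 15.4% called was close to the 14.9% of all genes in either direction. Without any 1 array 2 to 4 fell, and 1 of the 6 fell in each of those fits. Adssl1, an enzyme of the purine nucleotide cycle, read 11.23, 11.22 and 11.43 in vehicle and 8.61, 8.97 and 8.82 at 96 h, 5.63-fold lower (-2.49 ± 0.13). Ampd3, an AMP deaminase that is not in this list, fell as well (-2.02 ± 0.13).

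Of 38 genes of fatty acid synthesis and lipid storage 11 rose (28.9%, against 7.51% of all genes) and 1 fell, with a median of 0.23, and 9 or 10 rose without any 1 array. Lpl, which frees fatty acids from lipoproteins, read 12.09, 11.88 and 12.05 in vehicle and 13.42, 13.46 and 13.40 at 96 h (1.42 ± 0.12). Fabp5, a fatty acid carrier of the cytosol, rose at least 1.90-fold from a level no vehicle array detected, and Abhd5, the activator of the triglyceride lipase, rose (0.93 ± 0.15). Acly, which supplies acetyl-CoA for synthesis, fell (-0.44 ± 0.11). Of 26 genes listed for the TCA cycle and pyruvate entry 4 rose (15.4%, against 7.51% of all genes), 2 to 4 without any 1 array. In limma 0 fell (3 at an unadjusted p under 0.05). The 2 that held without any 1 array were Idh1 (0.70 ± 0.15) and Pdk4 (0.59 ± 0.13). Idh1 encodes the cytosolic isocitrate dehydrogenase and Pdk4 a kinase that restrains pyruvate entry, so neither is a step of the cycle. None of 34 complex I subunits was called in limma and 0 had an unadjusted p under 0.05, with values between -0.19 and 0.24. Cox7a1, a complex IV subunit of muscle and fat, fell (-0.78 ± 0.14). Aqp7, the glycerol channel of fat cells, rose (1.64 ± 0.17), and Ppp1r3c, which directs glycogen synthesis, rose (1.84 ± 0.12).

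**Figure D5:**
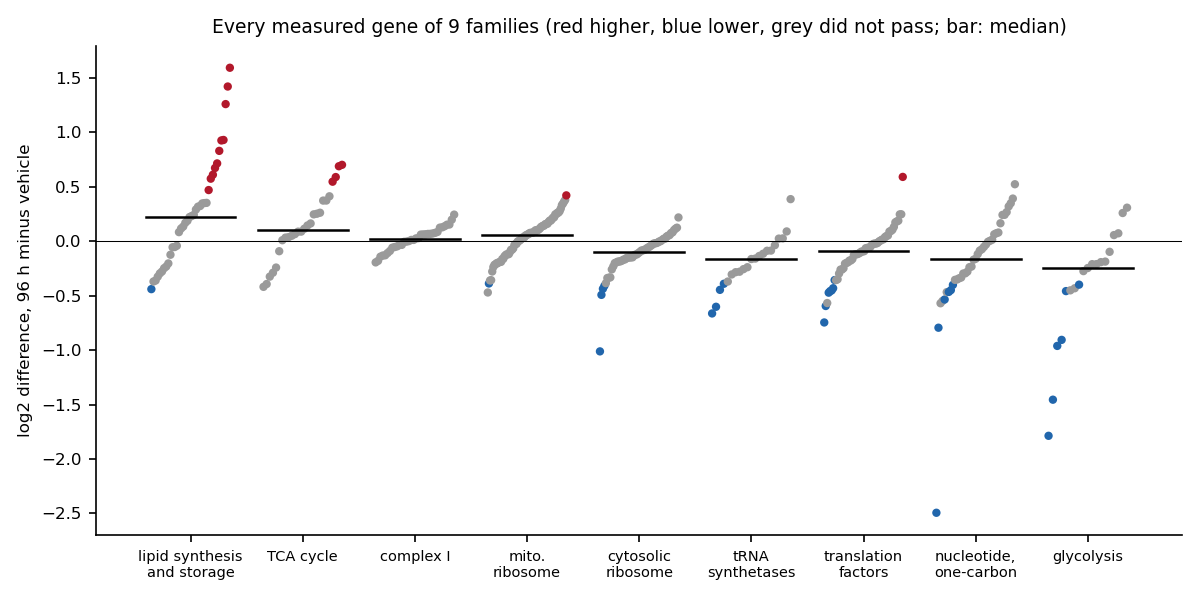
Log2 difference between 96 h and vehicle (vertical axis) for every measured gene of 9 families of metabolism and protein synthesis. Red points rose, blue points fell, grey points did not pass, and bars are medians, which run from -0.25 for glycolysis to 0.23 for lipid synthesis and storage.

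Genes of protein synthesis were called at shares that varied by family, and most of those called were lower. Of 54 cytosolic ribosomal protein genes 4 fell (7.41%, close to the 7.37% of all genes) and 0 rose in limma, with a median of -0.10. At an unadjusted p under 0.05, 8 were lower and 0 higher. Rplp0, of the ribosomal stalk, read 9.51, 9.51 and 9.44 in vehicle and 8.76, 8.35 and 8.30 at 96 h (-1.01 ± 0.13), and the other 3 lost their calls without single arrays. Of 54 translation factors 7 fell (13%, against 7.37% of all genes) and 1 rose, and 3 or 4 fell without any 1 array. At an unadjusted p under 0.05, 13 were lower and 1 higher. Eif2b2 (-0.75 ± 0.13) and Eef2 (-0.60 ± 0.12) fell, and Eif4ebp2, which restrains the cap-binding factor, rose (0.59 ± 0.12). Of 21 cytosolic tRNA synthetase genes 4 fell (19%, against 7.37% of all genes) and 0 rose in limma, with a median of -0.16. At an unadjusted p under 0.05, 9 were lower and 0 higher. Kars (-0.66 ± 0.13) and Vars (-0.60 ± 0.14) held without any 1 array, when 2 or 3 of the list fell. Among 72 mitochondrial ribosomal protein genes 1 rose and 1 fell, among 64 ribosome biogenesis genes 1 fell, and among 44 proteasome subunits the activator gene Psme3 rose (0.54 ± 0.13). Of 72 F-box, cullin and KLHL genes, which choose targets for ubiquitin, 9 rose and 1 fell. The share called, 13.9%, was close to the 14.9% of all genes. Without any 1 array 6 to 9 rose. Fbxl7 was higher (0.78 ± 0.13) and Klhl3 at least 1.33-fold lower.

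Detoxification genes were split by enzyme. Of 49 glutathione transferases, aldehyde dehydrogenases and related reductases 8 rose and 11 fell, and 4 to 6 rose and 9 to 11 fell without any 1 array. Aldh1a7 read 7.02, 6.74 and 6.81 in vehicle and 8.89, 9.05 and 8.81 at 96 h (2.06 ± 0.13), and Aldh3a1 read 10.32, 10.29 and 10.21 in vehicle and 8.71, 8.59 and 8.64 at 96 h (-1.63 ± 0.13). Both encode aldehyde dehydrogenases, and the groups do not overlap in either. Aldh1l2, the folate enzyme of mitochondria, fell (-1.41 ± 0.20). Of 19 cytochromes P450 and flavin monooxygenases 4 rose and 0 fell in limma (2 at an unadjusted p under 0.05), and 2 to 4 rose without any 1 array, with Fmo1 (1.97 ± 0.16) and Cyp2c23 (0.97 ± 0.15) among them. Fmo1 was detected on 2 of the 3 vehicle arrays. The retinol carrier gene Rbp4 rose 5.65-fold (2.50 ± 0.18) and the alcohol dehydrogenase gene Adh1, which can oxidise retinol, rose (1.83 ± 0.16). Of 30 metal-handling genes 4 rose and 5 fell, and 2 to 4 rose and 1 to 3 fell without any 1 array. Heph (1.35 ± 0.15) and Cp (0.83 ± 0.15), copper oxidases that load iron for transport, were among the higher. Called were 30% of metal-handling genes, 21.1% of the P450 list and 38.8% of the transferase list, against 14.9% of all genes.

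Channels and transporters were also uneven. Of 47 ion channel genes 7 fell (14.9%, against 7.37% of all genes) and 2 rose, and 7 or 8 fell without any 1 array. Kcnn4, a calcium-activated potassium channel, read 5.98, 6.15 and 6.20 in vehicle and 4.49, 4.46 and 4.41 at 96 h, where no array detected it, at least 2.40-fold lower. Itpr3, a calcium release channel (-1.61 ± 0.15), Kcnab2 (-1.21 ± 0.20) and Kcnk2 (-1.21 ± 0.22) fell, and Trpv2 rose at least 1.26-fold. Fxyd5, a regulator of the sodium pump, fell (-1.73 ± 0.14). Of the exchangers, the sodium-calcium exchanger gene Slc8a1 rose (1.12 ± 0.13) and Slc4a8, a bicarbonate carrier, fell (-1.36 ± 0.19). Slc16a6 (1.55 ± 0.17) and the glutamate transporter gene Slc1a3 (0.91 ± 0.13) rose, and the glycine transporter gene Slc6a9 fell (-1.05 ± 0.17).

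Among transcription factors, 7 of 39 homeobox genes outside the Hox clusters fell (17.9%, against 7.37% of all genes) and 2 rose. Without any 1 array 5 to 7 fell. Of 13 Hox genes 1 rose and 2 fell (23.1% called, against 14.9% of all genes), with Hoxa2 lower (-0.55 ± 0.12). Irx3 read 10.10, 10.28 and 9.64 in vehicle and 8.62, 8.67 and 8.50 at 96 h (-1.41 ± 0.17), Dlx3 (-1.09 ± 0.15) and Dlx1 (-0.71 ± 0.15) fell, and Pknox2 rose (1.68 ± 0.14). Runx1, a regulator of blood and skeletal lineages, read 5.73, 6.19 and 6.27 in vehicle and 7.76, 7.70 and 7.76 at 96 h, 3.19-fold higher (1.67 ± 0.14). The Ets factor gene Etv1 fell (-1.23 ± 0.15). Other single members of families were Tbx18 (1.00 ± 0.15), Foxc1 (0.73 ± 0.12) and Klf2 (0.75 ± 0.13), which rose, and Klf4 (-0.77 ± 0.13), Foxs1 (-0.87 ± 0.18) and the clock genes Bhlhe40 (-1.21 ± 0.15) and Arntl (-0.77 ± 0.15), which fell. Esr1, the oestrogen receptor gene, was the 1 of 21 nuclear receptors that passed (1.12 ± 0.16). The 195 measured zinc finger genes named Zfp were quieter, with 8 higher and 3 lower (5.64% against 14.9% of all genes), and 5 to 8 and 2 to 4 without any 1 array. Of 107 chromatin-modifying genes 8 fell (7.48%, close to the 7.37% of all genes) and 1 rose, 3 to 5 lower without any 1 array. The median of that list was 0.03. Kdm7a, a histone demethylase, rose (0.94 ± 0.12) and Hdac6, a deacetylase that acts mainly on tubulin, fell (-0.86 ± 0.15).

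By size of change, the genes ranked 11 to 40 in each direction held further secreted and metabolic products. Higher were Hp, the haemoglobin scavenger haptoglobin, which rose 5.36-fold (2.42 ± 0.13), the amine oxidase gene Aoc3 (2.40 ± 0.13), the cysteine dioxygenase gene Cdo1 (2.20 ± 0.14), Agt, angiotensinogen (2.05 ± 0.27), and Esm1, endocan (1.92 ± 0.16). The lysozyme genes Lyz1 (2.08 ± 0.14) and Lyz2 (1.93 ± 0.15) rose, and as close paralogs their probes cannot be assigned with certainty. Lower were Tafa5, a secreted chemokine-like protein, 5.71-fold (-2.51 ± 0.14), Tmem184a (-2.41 ± 0.14), Ly6c1 (-2.35 ± 0.24) and the splicing factor gene Rbfox1, at least 3.57-fold. Also lower were the actin-capping Capg (-2.00 ± 0.13), Eps8 (-1.94 ± 0.13), Sparcl1 (-2.18 ± 0.16), Fez1 (-2.25 ± 0.14), Zic4 (-2.25 ± 0.15) and Sncg, gamma-synuclein (-1.86 ± 0.14).

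Markers of the labelled cell type were present, with 16 of 20 stromal markers on the array measured, Pdgfra, Col1a1 and Prrx1 among them. Thy1, Nt5e, Lepr and Lum did not pass the detection filter. Of the measured markers 4 rose and 3 fell (43.8% called, against 14.9% of all genes), including Alcam (0.68 ± 0.14) and Cd44 (-1.35 ± 0.11). Lyz2 is also a myeloid marker, and 5 of 10 myeloid markers on the array were measured. Of the others Cd14 fell (-0.96 ± 0.21) and Csf1r, Adgre1 and Spi1 did not pass (-0.26 to 0.24), while Ptprc did not pass the detection filter. The median of the myeloid list, relative to vehicle, was -0.15 to 0.11 on the vehicle arrays and -0.15 to 0.22 at 96 h. Measured markers numbered 2 of 9 B lymphoid, 2 of 10 endothelial, 3 of 10 epithelial and 2 of 4 erythroid. Of these only Ebf1, which stromal and fat precursor cells also express, was called (0.58 ± 0.15), and it lost its call without vehicle replicate 1 (adjusted p = 0.0854). The part of other cell types in these results was not tested. Fewer cells of a type and less RNA per cell cannot be told apart in such bulk samples.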

How the data were processed

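The authors deposited, per the file headers, a non-normalized table of 12 arrays that gives a signal intensity per probe, on a linear scale, and beside it a detection p-value. A second table that the authors deposited holds normalized intensity values, and the submitters' processing notes name limma, with version and settings not given in the sources used here. On the log2 scale this deposited table and the values used below lay within 0.0193 of each other.

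The non-normalized intensities were processed with limma (3.58.1) and data.table (1.17.8) under R (4.3.3). The background was corrected from the detection p-values, an offset of 16 added, and the 12 arrays were normalized by quantiles and put on the log2 scale. In the platform annotation 34885 of 45281 probes carry a single gene symbol, 18 carry several and 10378 carry none. Probes with a detection p under 0.05 on at least 3 of the 12 arrays were kept (18897, of which 15961 with 1 gene), and a gene was its kept probe with the highest mean (10211 genes, 3863 with more than 1 kept probe). Means of the 4 groups were fitted to all 12 arrays in limma (8 residual degrees of freedom), and p-values were adjusted over the kept probes by Benjamini-Hochberg. Where all 3 arrays of a group failed to detect a gene, its fold is a lower bound, with the group set per array to the lowest detected signal or the gene's own if higher.

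The members and the 117 gene lists were chosen with earlier results of these data known. Lists that are neither described in the text nor drawn in the plot of family shares are not reported here. Genes were named by list, up to 5 members in each direction with the largest difference whose groups did not overlap (all called members in lists with at most 5), and by rank 11 to 40 in each direction; genes not called, H2A and H2B neighbours, H2ac19 and markers were named after their values were seen. RefSeq names (GRCm38.p6) were used to update symbols in the lists. Alternatives were no background correction, median scaling, a fit to the 6 arrays alone, an offset of 50, no detection filter or a stricter one (p under 0.01 throughout 1 of the compared groups), the deposited normalized values, the replicate number as a block, averaging the probes of a gene, and each of the 6 arrays left out. The fit was tested on simulated data. Figures were drawn with matplotlib 3.10.9 in Python 3.11.15. The number of arrays limits the precision.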

Additional observations from a re-analysis of the deposited data

How the results depend on the processing

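All 15 alternatives kept the counts of genes within 1.5 times those given above, with 564 to 1045 genes higher and 577 to 970 lower, and so did the probe counts wherever they exist (averaging the probes of a gene gives none). Both highest counts came without background correction. Leaving out 1 array gave 564 to 663 genes higher and 577 to 635 lower, and 900 to 1043 probes higher and 985 to 1084 lower. Median scaling gave 835 higher and 677 lower and moved the median of all genes to 0.03. List medians moved by more than the SD between replicates in 46 of 117 lists without the detection filter, in 38 without background correction, in 0 with the deposited values or the block, and in 19 to 32 in the other settings. Of 520 genes checked one by one, none changed sign under any alternative and 353 passed in all 15, and single-array omissions ended between 80 and 103 calls each. Samples with the same replicate number did not deviate together (r = -0.02 to 0.02), so the values gave no sign of pairing by number. Whether such samples shared a culture or batch cannot be told from these correlations. With the replicate number as a block 732 genes were higher and 724 lower (1185 and 1238 probes), and 26 of the 520 genes did not pass. With 3 arrays per group the median SE of 0.15 limits small differences, and genes near background have only a bound. Histone and lysozyme paralogs cannot be told apart with certainty.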
